A study of Mus musculus with 8 samples.

Results

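The genes examined act in mitochondrial dynamics and in the upkeep of mitochondrial DNA. Mfn1, Mfn2, Opa1, Dnm1l, Fis1, Tfam, Polg, Polrmt, Nrf1 and Ppargc1b were taken as listed, and each was followed through the single locus of the deposited annotation that holds it. Of these 10 genes, 9 had a locus of their own among the 35299 loci in the table, and all 9 lay above the filter on low values that left 19186 loci for testing. Mfn2, the mitofusin that also tethers mitochondria to the endoplasmic reticulum, was dropped. Its locus (mm9 chromosome 4, 147244369 to 147311541) also holds the exons of Plod1, a collagen lysyl hydroxylase, and assembled transcripts run through both. The shared locus had 125792, 146526, 132824 and 139267 normalised reads in MI replicates 1 to 4, against 180535, 183737, 180419.7 and 185058 in Sham replicates 1 to 4. How far either gene set these values cannot be told apart.

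Mitochondria fuse, divide and copy a small genome of their own. Mitofusins on the outer membrane and Opa1 on the inner membrane join mitochondria. The dynamin-related GTPase Drp1, the product of Dnm1l, divides them, and Fis1 is an outer membrane protein that helps to recruit division factors. The mitochondrial genome (mtDNA) is packaged by Tfam, copied by the polymerase Polg and transcribed by the RNA polymerase Polrmt. These proteins are all encoded in the nucleus, where transcription factors such as Nrf1 and coactivators of the PGC-1 family drive their genes. Heart muscle is among the tissues richest in mitochondria, and in mice the loss of both mitofusins or of Tfam in cardiomyocytes leads to cardiomyopathy.

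Long RNA from heart was compared between mice with a myocardial infarction (MI, n = 4) and mice after a sham operation (Sham, n = 4). All were C57BL/6J animals 12 weeks old, and tissue came from the border zone 2 weeks after surgery. The groups follow the sample titles and the treatment field. Other fields conflict with them, since the source field calls the MI samples Sham and 4 descriptions name the other operation. The summed level of 8 fibroblast markers separated the groups as titled, with 589370.4 to 913855 normalised reads in MI libraries and 107998 to 161994 in Sham libraries. Only the Sham titles carry a reanalysis remark, so that origin and infarction cannot be told apart. The libraries held 165496567 to 190192607 counted reads in MI and 108345923 to 160670654 in Sham, and 9 cardiomyocyte markers together reached at least 3644703 normalised reads in every library. Values are reads divided by the size factor of their library. In marker levels MI replicate 2 stood apart by atrial muscle and MI replicate 3 by skeletal muscle and fat. Each member rested on at least 1115 reads in every library.

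Promoter sequence was matched by symbol for 8 of the 9 members in the RefSeq promoter table (GRCm38.p6), and Ppargc1b had no entry. The stretches below lie just upstream of the annotated start and are shown because they hold letters associated with 2 known regulators of nuclear genes for mitochondrial proteins. They are given 5′ to 3′ on the gene's strand, at chr16:29579230-29579329 (plus strand) for Opa1, chr3:32529393-32529481 (plus) for Mfn1, chr10:71238045-71238136 (minus) for Tfam, chr7:79466274-79466356 (minus) for Polg and chr5:136953212-136953274 (plus) for Fis1. Capitals mark the NRF-1 pattern in Opa1, searched as these letters with any base at the fifth position, and in the other genes CCGGAAGT, the pattern of the ETS factor GABP.
Opa1: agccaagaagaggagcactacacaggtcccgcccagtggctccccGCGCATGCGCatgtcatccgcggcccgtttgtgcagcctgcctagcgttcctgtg
Mfn1: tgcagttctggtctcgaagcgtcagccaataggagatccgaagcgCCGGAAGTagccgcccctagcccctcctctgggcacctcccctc
Tfam: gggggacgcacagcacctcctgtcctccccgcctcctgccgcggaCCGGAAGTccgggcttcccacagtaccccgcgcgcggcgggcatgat
Polg: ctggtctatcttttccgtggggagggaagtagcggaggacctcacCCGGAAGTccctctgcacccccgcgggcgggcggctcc
Fis1: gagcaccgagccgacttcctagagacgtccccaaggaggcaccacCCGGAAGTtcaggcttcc

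Both strands were searched over 250 bases before and 50 after each start, with patterns chosen after these promoters had been seen. The NRF-1 pattern occurred in 2 of the 8 members, Opa1 and Polrmt, where 5.19% of 27025 genes held it in at least 1 promoter. Polrmt held 2 matches that overlap each other at the start. The GABP pattern occurred in 4 of the 8 members, against 4.31% of all genes, and Fis1 held it again just after the start. The core letters bound by the estrogen-related receptors, AAGGTCA, were in none of the 8 members and in 5.38% of all genes. A match describes letters in a window and does not show a bound site.

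In the deposited scaling, 7 of the 9 members were lower in MI hearts and none was higher (limma-trend, Benjamini-Hochberg adjusted p under 0.05), though with total scaling 1 was lower and 1 higher. At an unadjusted p under 0.05 8 were lower and 0 higher, a threshold at which the share of all tested loci was not counted. By edgeR or DESeq2 0 were higher, against 22.3% and 22.6% of all tested loci. At adjusted p in the main test, 20.1% of all tested loci were called lower, 20.8% higher and 40.9% either way in the deposited scaling. With total scaling 7.81% were lower and 44.4% higher. The members that fell were the fusion genes Mfn1 and Opa1, the fission genes Dnm1l and Fis1, and Tfam, Polg and Polrmt of the mtDNA machinery. For each of the 7, every MI library lay below every Sham library, which held for 20.0% of tested loci (19.7% the other way and 39.6% either way). The regulators Nrf1 and Ppargc1b did not pass. The median log2 difference (MI minus Sham) was -0.33 over the 9 members, with a range of -0.53 to -0.03, and -0.02 over all tested loci. The means of the 7 were 13.6% to 30.6% below the Sham mean.

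**Figure D1:**
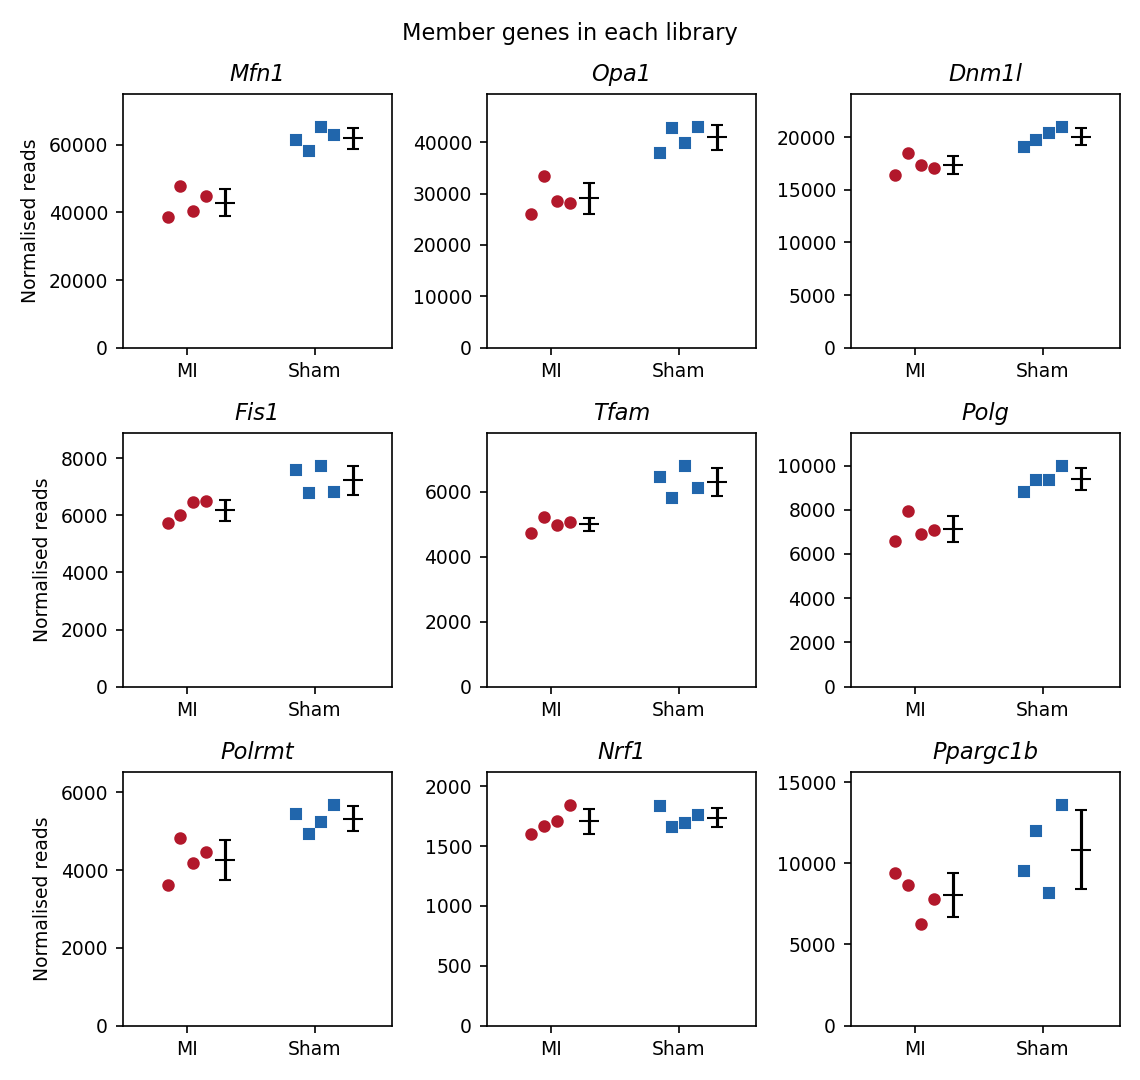
Normalised reads (vertical axis, starting at 0) of the 9 member genes in each of 4 MI libraries (red circles) and 4 Sham libraries (blue squares), with mean ± SD in black. The groups do not overlap in the first 7 panels and overlap for Nrf1 and Ppargc1b.

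Size and sign depended on how libraries were scaled. The share of reads on chrM was 23.8 to 26.1% in MI libraries and 29.2 to 32.3% in Sham libraries. Scaling to the library total raised the median log2 difference of all tested loci by 0.30, and scaling to the total outside chrM raised it by 0.19. With total scaling only Mfn1 remained lower (-0.22, adjusted p = 0.00428), Nrf1 was higher (0.28, adjusted p = 0.0122), and Dnm1l (0.10) and Fis1 (0.08) changed sign without passing. Of all tested loci 44.4% were then higher and 7.81% lower, and their median was 0.29, near the value of Nrf1. With the total outside chrM, 3 members, Mfn1, Opa1 and Polg, were lower, against 11.2% of all tested loci lower and 33.2% higher. TMM and upper-quartile scaling each gave 7 lower, against 18.9% and 20.5% of all tested loci. Testing without the filter on low values gave 5, against 9.15% of all loci. The members' median lay 0.31 below that of all tested loci under every scaling. That gap could hardly change, because a scaling moves all loci of a library alike, so it is no check of the result.

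Markers of heart muscle itself differed between the groups as well in the deposited scaling. The summed level of the 9 cardiomyocyte markers was 3644703 to 4259892 normalised reads in MI libraries and 4607781 to 5477249.8 in Sham libraries. In the deposited scaling 5 of the 9 markers were called lower and none higher by limma, at adjusted and unadjusted p alike. Counts by edgeR and DESeq2 were the same. The markers' median log2 difference was -0.28, while total scaling raised the median of all tested loci by 0.30. Single markers differed widely, from -0.68 (Myl2) and -0.67 (Ryr2) to -0.10 (Actc1), -0.02 (Csrp3) and -0.00086 (Mybpc3). Scaling to their mean level used all 9, and scaling to a part of them was not tested. Calls of the markers with total scaling were not examined. When the libraries were scaled to the mean log2 level of these markers, the members' median log2 difference was 0.01, against 0.33 over all tested loci. Mfn1 was then still lower (-0.19, adjusted p = 0.0103) and Nrf1 higher (0.32, adjusted p = 0.00537), and the other 7 did not pass. Of all tested loci 48.1% were higher and 6.93% lower with this scaling, and Nrf1 lay near their median. In whole tissue, fewer cardiomyocytes and less of a transcript per cardiomyocyte cannot be told apart.

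**Figure D2:**
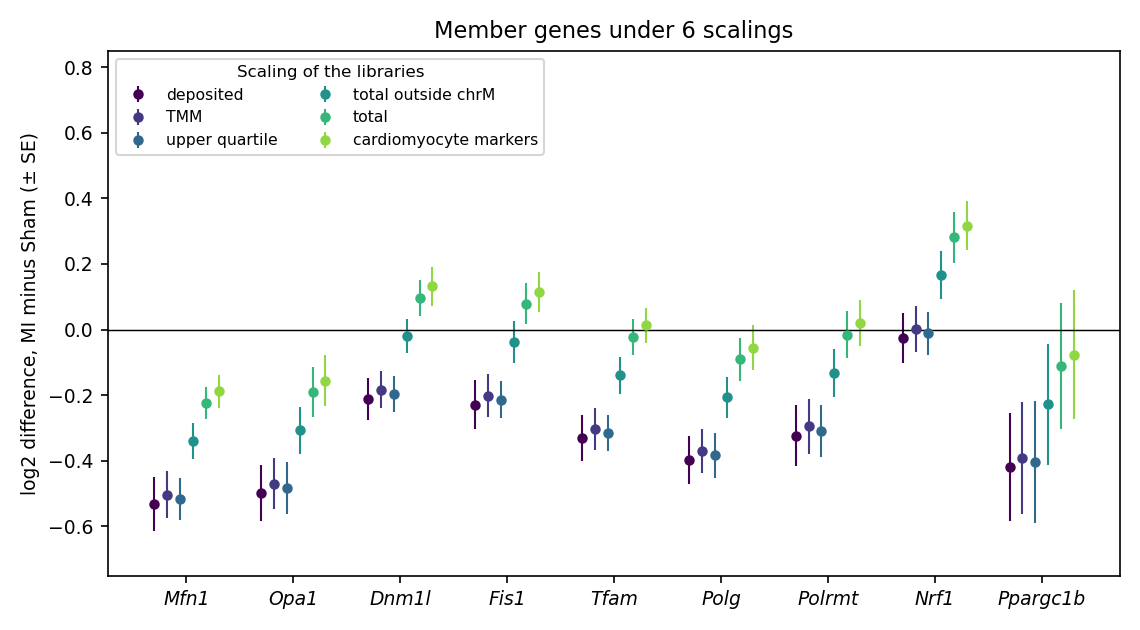
Log2 difference, MI minus Sham, with its standard error (vertical axis) for each member gene under 6 scalings of the same 8 libraries. Mfn1, Opa1, Polg and Ppargc1b stay below 0 under all 6, while Dnm1l, Fis1 and Nrf1 lie above 0 when libraries are scaled to the total or to cardiomyocyte markers, and Tfam and Polrmt with cardiomyocyte markers.

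Mfn1 (mm9 chromosome 3, 32428408 to 32476598) had the largest fall of the members, and stayed lower under every scaling tried. It stood at 38783, 47701, 40524 and 44721 normalised reads in MI replicates 1 to 4, against 61343, 58059, 65366 and 62788 in Sham replicates 1 to 4. All MI values lay well below the lowest Sham value. The means were 42932 ± 4039.5 in MI and 61889 ± 3048 in Sham (SD, n = 4 each, as for all means given), a log2 difference of -0.53 ± 0.08 (SE, as for all log2 differences) (adjusted p = 5.65e-04). Among all tested loci 13.3% had a lower log2 difference. The call held in each of 8 leave-one-out fits. The end of its locus shares 101 exon bases, 2.78% of the locus, with Gnb4 on the other strand.

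Opa1 (chromosome 16, 29579428 to 29655156), the inner membrane fusion GTPase that also shapes cristae, fell by nearly as much in the deposited scaling. Its values were 26076, 33320.0, 28576 and 28212 normalised reads in MI, against 37977, 42721, 39908 and 43017 in Sham. MI replicate 2 was the highest MI library and still lay below every Sham library. The log2 difference was -0.50 ± 0.09 (means 29046 ± 3055 in MI and 40906 ± 2403 in Sham; adjusted p = 0.00106). With total scaling it was -0.19 and did not pass (adjusted p = 0.0558).

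In the deposited scaling the fission genes fell least among the called members, and with total or cardiomyocyte marker scaling their differences had the opposite sign. Dnm1l (chromosome 16, 16309631 to 16362640) had 16384, 18482, 17351 and 17085 normalised reads in MI, against 19056, 19745, 20401 and 20982 in Sham. The highest MI value and the lowest Sham value lay close together. In the deposited scaling the log2 difference was -0.21 ± 0.06 (means 17325 ± 872 in MI and 20046 ± 831 in Sham; adjusted p = 0.0231). It did not pass in 4 of 8 leave-one-out fits, those without MI replicate 1, 3 or 4 or Sham replicate 4 (adjusted p up to 0.0692). The end of the assembled Dnm1l transcripts shares 2792 exon bases, 24.3% of the locus, with Yars2 on the other strand, a mitochondrial tyrosyl-tRNA synthetase gene whose own locus had a log2 difference of -0.53 ± 0.09. Reads from the overlap cannot be assigned to either strand from the sources used here.

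Fis1 (chromosome 5, 137429066 to 137443621) had 5715, 6012, 6473 and 6486 normalised reads in MI, against 7598, 6785, 7741 and 6814 in Sham. The gap between the groups was again narrow. Means of 6172 ± 376 in MI and 7234.5 ± 506 in Sham gave a log2 difference of -0.23 ± 0.07 (adjusted p = 0.0304). The call was lost without MI replicate 1 or 2 or Sham replicate 1 or 3 (adjusted p up to 0.0785), and without the filter on low values (adjusted p = 0.0502).

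The 3 mtDNA genes fell in the deposited scaling, none of them passed with total scaling, and Tfam and Polrmt lay above 0 with cardiomyocyte marker scaling. Tfam (chromosome 10, 70688225 to 70701021), which coats mtDNA and starts its transcription, had 4727, 5206, 4973 and 5077 normalised reads in MI, against 6453, 5794, 6799 and 6103 in Sham. The MI libraries were tightly grouped and all below Sham. The log2 difference was -0.33 ± 0.07 (means 4996 ± 203 in MI and 6288 ± 435 in Sham; adjusted p = 0.00372). It passed in all 8 leave-one-out fits, and stood at 0.01 with cardiomyocyte marker scaling.

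Polg (chromosome 7, 86594269 to 86611159), the catalytic subunit of the mtDNA polymerase, had 6609.6, 7936, 6889.8 and 7076 normalised reads in MI, against 8795, 9352, 9368 and 9995 in Sham. Every MI library was below every Sham library. Its log2 difference of -0.40 ± 0.07 (adjusted p = 0.00178) passed in all 8 leave-one-out fits. Its end shares 398 exon bases, 8.66% of the locus, with the DNA repair gene Fanci on the other strand, which was far less abundant at 237 normalised reads in MI and 206 in Sham.

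Polrmt (chromosome 10, 79198875 to 79209318) had 3605, 4818, 4184 and 4467 normalised reads in MI, against 5430.0, 4926, 5228 and 5682 in Sham. MI replicate 2 came within a few percent of Sham replicate 2. Its log2 difference was -0.32 ± 0.09 (adjusted p = 0.0177), and without Sham replicate 4 it was -0.29 and did not pass (adjusted p = 0.0514). Nor did it pass without the filter on low values (adjusted p = 0.0564). With cardiomyocyte marker scaling it was 0.02.

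Neither regulator passed in the deposited scaling. Nrf1 (chromosome 6, 29997139 to 30103458), a transcription factor that binds promoters of respiratory chain and mtDNA genes, had 1599, 1668, 1713 and 1846 normalised reads in MI, against 1837, 1656, 1693 and 1758 in Sham. The groups overlapped throughout. The log2 difference was -0.03 ± 0.08 in the deposited scaling (adjusted p = 0.815) and passed as higher with total or cardiomyocyte marker scaling. Medians of all tested loci were 0.29 and 0.33 with these scalings, so Nrf1 lay near a typical locus.

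Ppargc1b (chromosome 18, 61450909 to 61561214) encodes PGC-1 beta, a coactivator of oxidative metabolism genes. It had 9383, 8695, 6249 and 7805 normalised reads in MI, against 9526, 11989, 8177 and 13613 in Sham. The groups overlapped, and the Sham libraries were widely spread. Means were 8033 ± 1353 in MI and 10826 ± 2438 in Sham, with a log2 difference of -0.42 ± 0.17 that did not pass (adjusted p = 0.0656). DESeq2 on the recovered reads called it lower (adjusted p = 0.0452), as did the fit without Sham replicate 3 (adjusted p = 0.021).

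One library stood at the low end for most members. MI replicate 1 was the lowest MI library for 8 of the 9, the exception being Ppargc1b, for which it was the highest. It also had the lowest summed cardiomyocyte marker level, 3644703 normalised reads, and the most reads of all libraries. MI replicate 2 was the highest MI library for 6 members and had the lowest summed fibroblast marker level in MI, 589370.4. Without MI replicate 1, 5 members were called lower, against 16.7% of all tested loci in that fit. Without Sham replicate 4 it was likewise 5, against 17.2%. The part of these library differences in the result was not tested.

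Ratios between members within 1 library do not depend on its scaling and were compared as levels per kilobase of merged exons, without a test. The ratio of Opa1 to Dnm1l was 2.46, 2.79, 2.55 and 2.55 in MI libraries, against 3.08, 3.35, 3.03 and 3.17 in Sham libraries. The groups did not overlap, so Opa1 was lower relative to Dnm1l in every MI library than in any Sham library. How often other gene pairs separate likewise was not tested, and 24.3% of the Dnm1l locus is shared with Yars2. The ratio of Mfn1 to Dnm1l, added after its values were seen, was 7.39 to 8.28 in MI and 9.30 to 10.2 in Sham, again apart. The groups overlapped for Fis1 to Dnm1l (0.643 ± 0.045 in MI and 0.651 ± 0.060 in Sham), Polrmt to Polg (0.733 ± 0.045 and 0.696 ± 0.046) and Tfam to Polrmt (1.11 ± 0.09 in MI and 1.12 ± 0.09 in Sham). They overlapped as well for Ppargc1b to Nrf1, at 2.98 to 4.79 in MI and 3.94 to 6.32 in Sham.

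**Figure D3:**
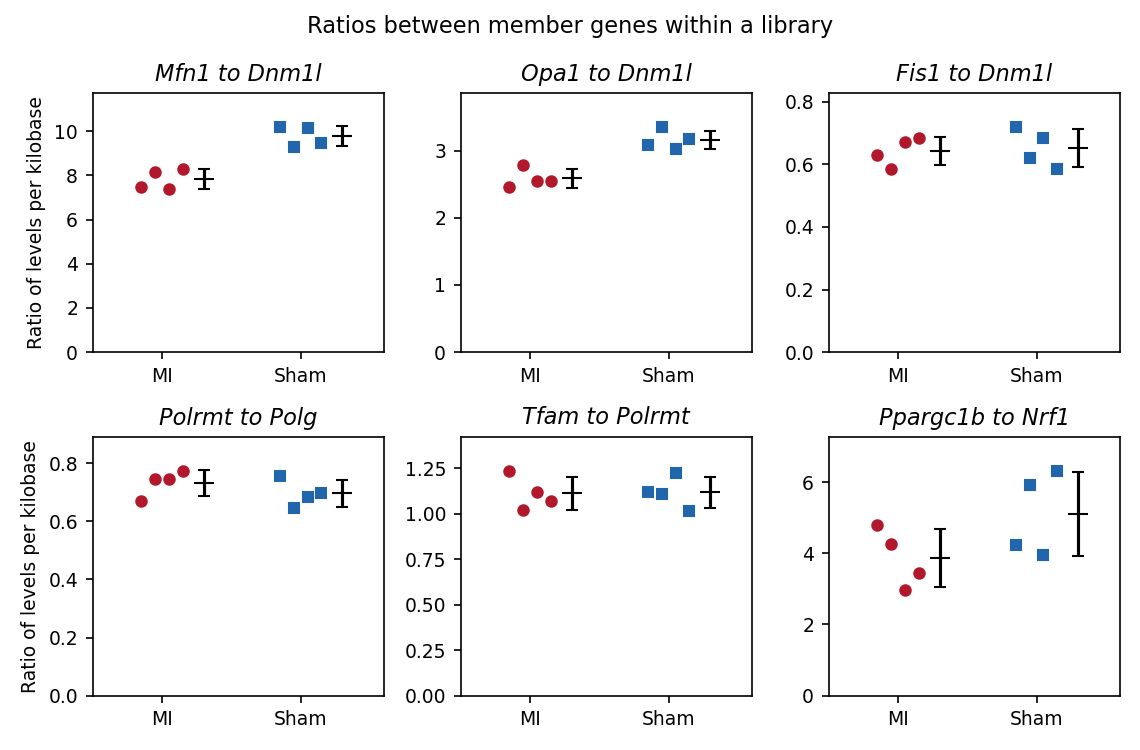
Ratio of the levels per kilobase of member genes within each library (vertical axis, starting at 0), MI as red circles and Sham as blue squares, with mean ± SD in black (n = 4 each). The MI and Sham libraries separate for Mfn1 to Dnm1l and Opa1 to Dnm1l and overlap in the other 4 panels.

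Levels per length ranked Mfn1 first, with 11830.3 ± 1113 normalised reads per kilobase of merged exons in MI and 17054 ± 839.9 in Sham. Opa1 followed at 3913 ± 412 in MI and 5511 ± 324 in Sham, and both were apart from the next gene in every library. Polg, Dnm1l, Tfam, Polrmt and Fis1 lay close together, between 968 and 1551 in MI and between 1135 and 2040.3 in Sham. In MI the neighbours Polg and Dnm1l, Tfam and Polrmt, and Polrmt and Fis1 overlapped. Ppargc1b (689 ± 116 in MI and 928 ± 209 in Sham) and Nrf1 (179 ± 10.9 and 182 ± 8.36) were lowest. The order was equal in Sham, where Dnm1l and Tfam, Tfam and Polrmt, and Fis1 and Ppargc1b overlapped. It depends on the length used, since assembled transcripts can be much longer than the reference transcripts. Divided by the longest reference transcript, Fis1 (773 bases, against 6373 bases of merged exons) reached 7984 per kilobase in MI and 9359 in Sham and ranked second, behind Mfn1.

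Profiles most like each member were sought among 11147 protein-coding genes with a mean of at least 100, by the root mean square difference of log2 values relative to the gene's own Sham mean over the 8 libraries. Mfn1 lay close to Acp6, a mitochondrial lysophosphatidic acid phosphatase (0.026 log2 units). Opa1 lay closest to Pcyt1a, an enzyme of phosphatidylcholine synthesis (0.036), and Pmpca, a subunit of the mitochondrial processing peptidase (0.042). For Dnm1l these were Tnpo3 (0.022), a nuclear import receptor, and Rhot1 (0.024), the GTPase Miro1 that links mitochondria to motors. For Fis1 they were Cuedc2 (0.023) and Ube2l3 (0.029), and for Tfam they were Mtfr1l (0.018) and Mtif3 (0.023), a mitochondrial translation initiation factor. Polg lay closest to Ecpas (0.028) and Dlg1 (0.030), Polrmt to Eps8l2 (0.045) and Fbrsl1 (0.050), and Nrf1 to the histone chaperone gene Hira (0.029) and Ess2 (0.029). Ppargc1b had no profile as close, with Dbndd1 at 0.11 and Pfas at 0.12. How close unrelated profiles come among so many genes was not tested.

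The wider machinery was followed in 6 lists of 108 genes, of which 97 could be followed in a locus with no other gene, 95 of them above the filter. In the deposited scaling 52 were lower and 7 higher, with a median log2 difference of -0.26, against -0.02 over all tested loci. The counts of each list stand against 20.1% of all tested loci lower and 20.8% higher in the deposited scaling, and 7.81% lower and 44.4% higher with total scaling. These shares are at adjusted p, and none was counted at an unadjusted p. In fusion and cristae shaping, 13 of 16 genes were lower and none higher by limma (14 and 0 at an unadjusted p under 0.05, 0 higher by edgeR or DESeq2; median -0.38; 6 lower and 2 higher with total scaling). Oma1, the inner membrane protease that cleaves Opa1, was lower in MI at 3331 ± 192 than in Sham at 4903 ± 369 normalised reads (log2 difference -0.56 ± 0.08, adjusted p = 2.78e-04). Chchd3, a subunit of the cristae junction complex MICOS, had a log2 difference of -0.54 ± 0.09, and Samm50 of the outer membrane sorting machinery -0.53 ± 0.08. All 3 remained lower under every scaling.

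Fission adaptors and regulators divided, with 7 of 13 lower and 3 higher (median -0.24; 2 lower and 5 higher with total scaling). Mtfp1, an inner membrane protein that promotes fission, stood at 9031 ± 1013 normalised reads in MI and 16284 ± 1616 in Sham (log2 difference -0.85 ± 0.10, adjusted p = 9.47e-05). Mtfr1 (-0.56 ± 0.07) and the ubiquitin ligase gene Mul1 (-0.44 ± 0.08) fell too, Mul1 not with total scaling. The genes that rose were Cdk1, the mitotic kinase that phosphorylates Drp1 (543 ± 134 in MI and 116 ± 49.5 in Sham; log2 difference 2.32 ± 0.33), the low-level Mtfr2 (1.14 ± 0.25), and Spire1, an actin nucleator with a mitochondrial isoform (0.49 ± 0.09). Cdk1 is best known from dividing cells.

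In mtDNA replication and nucleotide supply, 9 of 18 genes were lower and 2 higher (median -0.26; 4 lower and 7 higher with total scaling). Twnk, the helicase Twinkle that works with Polg, stood at 3646 ± 428 normalised reads in MI and 5584 ± 234 in Sham (log2 difference -0.62 ± 0.09, adjusted p = 3.31e-04). Slc25a33, a mitochondrial pyrimidine nucleotide carrier, had 2485 ± 519 in MI and 4809 ± 1234 in Sham (-0.94 ± 0.20). Endog, a mitochondrial nuclease, had a log2 difference of -0.62 ± 0.20 (adjusted p = 0.0299), and its call was lost without MI replicate 1 (-0.53) or 3 (-0.56) or Sham replicate 3 (-0.53) or 4 (-0.47), without the filter on low values (adjusted p = 0.127), and with scaling to the total (-0.31), the total outside chrM (-0.43) or cardiomyocyte markers (-0.28). Dna2, a nuclease and helicase of nuclear and mitochondrial DNA, was higher (0.60 ± 0.15), as was Tk2, mitochondrial thymidine kinase (0.26 ± 0.09, adjusted p = 0.0314). The call of Tk2 was lost without MI replicate 1, 2 or 3 or Sham replicate 4, at 0.23, 0.27, 0.27 and 0.20.

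In mitochondrial transcription and RNA handling, 10 of 16 genes were lower and none higher by limma (13 and 0 at an unadjusted p under 0.05, 0 higher by edgeR or DESeq2; median -0.33; 3 lower and 1 higher with total scaling). Lrpprc, which stabilises mitochondrial mRNAs, stood at 24487 ± 2229.8 normalised reads in MI and 38252 ± 1605 in Sham (log2 difference -0.65 ± 0.08, adjusted p = 1.21e-04). Mterf2, of the mitochondrial termination factor family, fell (-0.57 ± 0.10), and Tfb1m, a methyltransferase of mitochondrial ribosomal RNA, had a log2 difference of -0.56 ± 0.11 that did not pass with total scaling (-0.25).

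Among biogenesis regulators 7 of 19 genes were lower and 2 higher (median -0.19; 1 lower and 5 higher with total scaling). Perm1, a muscle regulator of PGC-1 and estrogen-related receptor targets, stood at 46275 ± 6053 normalised reads in MI and 68647 ± 4454 in Sham (log2 difference -0.58 ± 0.10, adjusted p = 0.0011). Ppara, a lipid-sensing nuclear receptor, had a log2 difference of -0.80 ± 0.23 with overlapping groups, and its call was lost without MI replicate 1 (-0.71), without the filter on low values (adjusted p = 0.0951), and with scaling to the total (-0.49), the total outside chrM (-0.61) or cardiomyocyte markers (-0.46). Esrrg, an estrogen-related receptor, had -0.55 ± 0.10 and did not pass with total scaling (-0.24). Ppargc1a, named after its values were seen, encodes PGC-1 alpha and had 22198, 19675, 43335 and 29145 normalised reads in MI, against 26250.2, 34493, 23338 and 35406 in Sham. The groups overlapped, and it did not pass (-0.11 ± 0.23, adjusted p = 0.733). Pprc1, the third member of the PGC-1 family, rose (0.27 ± 0.09, adjusted p = 0.044), a call lost in 6 of 8 leave-one-out fits, all but those without MI replicate 1 or Sham replicate 3, with the lowest value of 0.20 without MI replicate 4, and also lost without the filter on low values (adjusted p = 0.103). Gabpb1, a subunit of GABP, rose too (0.21 ± 0.07, adjusted p = 0.0276), and its call was lost without MI replicate 1 or 3 or Sham replicate 1 or 4 at 0.19 to 0.21.

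In mitophagy and motility, 6 of 13 genes were lower and none higher by limma (6 and 0 at an unadjusted p under 0.05, 0 higher by edgeR or DESeq2; median -0.18; 2 lower and 6 higher with total scaling). Pink1, the kinase that marks damaged mitochondria for removal, showed the largest fall of all 6 lists at 41969 ± 4803 normalised reads in MI, against 82892 ± 6408 in Sham (log2 difference -0.99 ± 0.10, adjusted p = 3.71e-05). The autophagy receptor genes Optn (-0.51 ± 0.09) and Bcl2l13 (-0.41 ± 0.08) fell too, Bcl2l13 not with total scaling (-0.10).

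**Figure D4:**
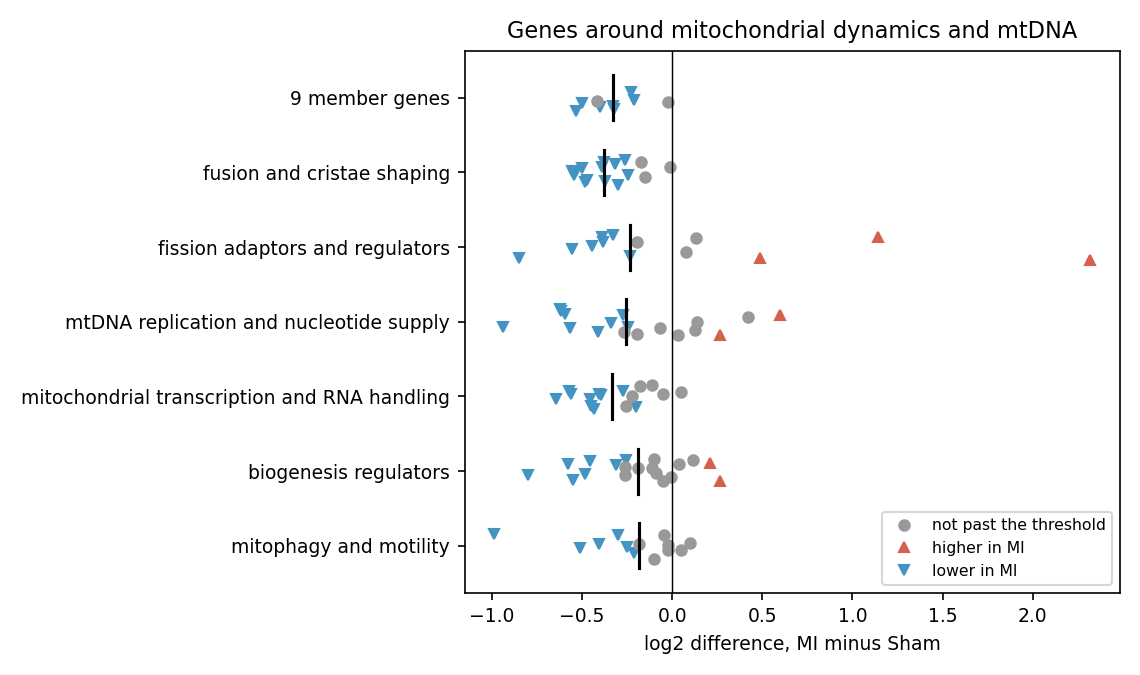
Log2 difference, MI minus Sham, in the deposited scaling (horizontal axis) of the 9 member genes and of the tested genes of 6 lists, with black bars at the medians. Triangles mark genes past the threshold (red higher, blue lower in MI) and grey circles the others. The medians of all 7 rows lie below 0, between -0.38 and -0.18.

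Markers of other cells differed between the same groups. All 8 fibroblast and all 7 macrophage markers tested were higher in MI, and the macrophage markers summed to 30707 to 38598 normalised reads in MI libraries and to 17383 to 24749 in Sham libraries. None of 8 endothelial markers passed by limma, edgeR or DESeq2, and 1 was higher at an unadjusted p under 0.05, with sums of 143709.9 to 166372 in MI and 129683 to 171747 in Sham. Smooth muscle markers (3 of 5 higher and 1 lower) summed to 43244 to 54489 in MI and 42552 to 52297 in Sham. Markers of atrial muscle (3 of 3 higher) summed to 274, 12698, 4392 and 2646 in MI replicates 1 to 4, against 187 to 585 in Sham. MI replicate 2 was the highest and MI replicate 1 lay within the Sham range. Those of skeletal muscle (1 of 5 higher by limma, 0 by DESeq2) summed to 7605 in MI replicate 3 and 396 to 432 in the other MI libraries, against 247 to 421 in Sham. Those of fat (3 of 4 higher) summed to 7876 in MI replicate 3 and 3269.7 to 3855 in the other MI libraries, against 2813 to 3662 in Sham. Much of each sum was Cidea, which did not pass (3041 to 3777 in MI and 2800 to 3645 in Sham). Adipoq, Plin1 and Cidec were each higher in every MI library than in any Sham library, Adipoq at 28.8 to 1661 against 3.42 to 11.0. Without MI replicate 2, and likewise without MI replicate 3, 6 members were called lower, against 20.3% and 17.0% of all tested loci. All 5 lymphocyte markers were higher (276 to 705 in MI and 179.6 to 311 in Sham), as were all 3 neutrophil markers (408 to 1848 and 84.3 to 209.7). The part of these cells in the members' values was not tested.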

How the data were processed

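The authors deposited 1 normalised signal per locus and sample and an annotation of assembled transcripts. The submitters' processing notes name HTSeq 0.5.4p2, DESeq, Cufflinks 2.0.2, TopHat2 2.0.5 and the mm9 build, with roles and settings not given in the sources used here. Per the labels' protocols, poly(A) RNA was sequenced in paired reads of 100 bases, and strandedness is not given. All values (100%) were whole multiples of the library's smallest value within 1e-06 (relative), so reads could be recovered.

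Loci were named by exon and intron lengths equal to those of GENCODE M21 genes on the same chromosome and strand, with start positions used only to check order within 200000 bases. Of 20485 annotated loci with several exons 93.0% were named. Coordinates of loci are mm9, and those of promoters GRCm38.p6. The main test was limma 3.58.1 (R 4.3.3) with an intensity trend on log2(value + 1), 2-sided, over loci with a mean of at least 10, with Benjamini-Hochberg adjustment over all 19186 and a threshold of 0.05. Log2 differences are on this scale. edgeR 4.0.16 on recovered reads called 4288 loci higher and 3649 lower, against 3999 and 3855 in the main test. DESeq2 1.42.0, other scalings, filters and pseudocounts and fits leaving out 1 library were alternatives. The fit was tested on simulated data with larger changes than those of the members and no shift in scaling between groups. Changes as small as those of the members were not simulated. No 2 libraries of a group were duplicates (chi-square per degree of freedom at least 31.2). Python 3.11.15, pandas 2.3.3, numpy 2.4.6, scipy 1.17.1 and matplotlib 3.10.9 were used.

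The members, lists and rules were chosen with earlier results of these data known. In each list the 3 called genes with the largest rise and the 3 with the largest fall were named. For each member the 2 genes of closest profile were named too, except 1 gene that is not reported here. A read count of 0 in a library would allow 3 reads, and the counts of genes given as 0 are not read counts. Genes without a locus of their own (11 of 108 list genes and 5 of 63 markers) were left out.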

Additional observations from a re-analysis of the deposited data

Results flagged for a closer look

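Among 72 groups of 4 values (the members, the named genes of the lists, library size and chrM share), 1 held a library far from the others, where chance flags about 1 in 20. Mul1, a mitochondrial ubiquitin ligase gene, stood at 8292 normalised reads in Sham replicate 2 and at 9367 to 9511 in the other Sham libraries, a gap of 0.882 of the range.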

How the results depend on the processing

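The main limit is scaling. Loci higher and lower numbered 8525 and 1498 with total scaling, 6368 and 2145 with the total outside chrM, and 9232 and 1330 with cardiomyocyte marker scaling. Of the members, 1 was higher and 1 lower with total or cardiomyocyte marker scaling, and 3 were lower with the total outside chrM. With total scaling Dnm1l stood at 0.10, Fis1 at 0.079 and Nrf1 at 0.28, and with cardiomyocyte marker scaling Dnm1l at 0.13, Fis1 at 0.11, Tfam at 0.013, Polrmt at 0.020 and Nrf1 at 0.32, all against negative values in the deposited scaling. For the lists in the order given in the text, genes higher and lower were 2 and 6, 5 and 2, 7 and 4, 1 and 3, 5 and 1, and 6 and 2 with total scaling. With cardiomyocyte marker scaling they were 2 and 5, 5 and 2, 8 and 3, 2 and 2, 6 and 1, and 6 and 2. With the total outside chrM 8 fusion genes were lower, fission genes were 5 higher and 3 lower, mtDNA replication genes 5 and 5, biogenesis regulators 4 and 4, and mitophagy genes 2 and 3. All loci shifted with each scaling by the amounts given in the text, or by 0.34 with cardiomyocyte markers.

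Leaving out each library in turn gave 5 to 7 members lower and 0 higher, 3324 to 3976 loci higher and 3193 to 3897 lower, 0 to 2 biogenesis regulators higher and 1 to 3 mtDNA replication genes higher, and 1 biogenesis regulator was higher without a filter on low values. Over these 8 fits the members' values ranged within -0.58 to -0.48 (Mfn1), -0.57 to -0.45 (Opa1), -0.24 to -0.18 (Dnm1l), -0.26 to -0.19 (Fis1), -0.37 to -0.29 (Tfam), -0.45 to -0.36 (Polg), -0.38 to -0.24 (Polrmt), -0.06 to 0.00 (Nrf1) and -0.54 to -0.30 (Ppargc1b). No alternative with another pseudocount, a mean of at least 50, TMM or upper-quartile scaling or edgeR changed a member's call.

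The groups share replicate numbers, but nothing in the labels pairs them. Deviations of same-numbered libraries correlated at 0.15, 0.27, 0.16 and -0.00092, and MI replicate 4 correlated best with Sham replicate 1. With the replicate number as a block 8 members were lower, Ppargc1b among them (adjusted p = 0.0187), with 1 biogenesis regulator higher, 4152 loci higher and 4056 lower. Gabpb1 lost its call (adjusted p = 0.0514). The series design states 4 biological replicates per condition, and p-values measure the spread between them.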

Other observations

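Loci beside the members held other values. Cldn15, a claudin gene just downstream of Fis1 on the same strand (mm9 chromosome 5, 137443739 to 137451710), averaged 770.2 normalised reads in MI and 370.3 in Sham (log2 difference 1.02 ± 0.22, limma adjusted p = 0.00385), opposite in sign to Fis1. An unannotated locus inside the first part of the Fis1 locus (137429594 to 137434065) averaged 296 in MI and 246 in Sham and did not pass (0.35 ± 0.26). Gnb4, a G protein subunit gene that shares 101 exon bases with the end of Mfn1 on the other strand, averaged 4695 in MI and 3869 in Sham (0.28 ± 0.06, adjusted p = 0.00555), opposite in sign to Mfn1. Hcn2, a pacemaker channel gene whose end lies next to that of Polrmt, did not pass (-0.30 ± 0.16, adjusted p = 0.147).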
